A study of Mus musculus with 2 samples.

Results

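The genes described here are 10 genes of tissue repair: the growth factors Igf1, Pdgfa, Pdgfb, Pdgfc, Vegfa, Vegfb, Tgfb1, Hbegf and Areg, and Fn1, which encodes fibronectin, a matrix protein and not a growth factor. They were taken by name from the 15623 genes listed in 1 or both of the deposited tables, and 9 of them were listed in both. RNA was sequenced from peritoneal macrophages of wild-type C57BL/6 mice, 6 to 8 weeks old per the methods of the study. The cells had been drawn into the peritoneal cavity with 4% thioglycolate, harvested 4 to 5 days later, allowed to adhere for 4 h and kept in medium with 0.5% FBS. The groups were nontreated cells (NT) and cells given mouse IL-4, the Th2 cytokine that drives M2 polarization through Stat6, for 6 h. Each group held 1 library, so no difference below has a replicate check, and every interval covers counting error only. How many mice were pooled is not given in the sources used here.

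Macrophages that enter damaged tissue release factors that act on neighbouring cells. IGF-1 promotes growth and survival, the PDGFs recruit and expand fibroblasts and smooth muscle cells, and VEGF-A drives the growth of blood vessels. TGF-β1 induces matrix production, HB-EGF and amphiregulin (Areg) activate the EGF receptor, and fibronectin forms the provisional matrix on which cells migrate. M2 macrophages are commonly linked to this repair program.

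The libraries held 11035641 (NT) and 11250099 (IL-4) expected counts, which are the RSEM estimates of the reads of each gene. All 7 macrophage markers examined were listed in both libraries, with summed levels of 14840 FPKM in NT cells and 14737 FPKM in stimulated cells (FPKM is scaled for transcript length and for depth). Lyz2 and Cd68 made up most of these sums. Csf1r was called higher (6236 and 11896 counts, log2 ratio 0.90), and the other 6 were not called, with Adgre1 at 0.42 and Fcgr1 at -0.39. Among markers of other cells, the adipocyte marker Adipoq had 0 and 139 counts and was called higher. The other adipocyte markers examined, Plin1, Lep and Cidec, were listed in neither library. Of the neutrophil markers, Csf3r (1758 and 3291) was called higher, while S100a8 (35 and 21) and Mmp8 (74 and 50) were not called. S100a9 and Ly6g were listed in neither. Of the eosinophil markers, Siglecf (53 and 27) was called lower, Prg2 had 0 and 1 counts, and Epx and Ccr3 were listed in neither. The part of such cells in the results was not tested. The labels name bone marrow as the tissue in one field and peritoneal macrophages in another. The stimulated library carried the IL-4 response, since Arg1 had 30 expected counts in NT and 7711 in IL-4, and Mrc1 had 679 and 6962. The ratio of IL-4 to NT, on the log2 scale, fell with transcript length across 8461 genes with at least 200 reads (Spearman correlation -0.45 across genes, which are not replicates). Each ratio is therefore followed below, where it matters, by its value less the median ratio found for genes closest to it in length.

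Upon IL-4 stimulation the 10 genes moved in both directions or failed to pass. Hbegf, Fn1 and Igf1 were called higher, Pdgfb and Vegfa were called lower, and Tgfb1, Vegfb, Pdgfa, Pdgfc and Areg were not called. A call required a log2 ratio of 0.75 or more in either direction, with an exact two-sided binomial p-value up to 0.05 and a Benjamini-Hochberg (BH) value up to 0.5. The numerical limits are those that the study set for this comparison, without naming the test behind them. Its RNA-sequencing methods state other limits, a fold change above 1.5 and a false discovery rate of 0.05. A p-value here refers to reads from single libraries and not to the treatment. Thus 3 of 10 were higher, against 4.07% of all 15593 genes tested, and 2 of 10 were lower, against 6.28%, or 5 of 10 in either direction against 10.4%. Where the larger of both values was 50 expected counts or more, 4.32% of genes were higher and 6.83% were lower. The median log2 ratio was 0.30 over the 9 genes listed in both libraries and -0.03 over all genes tested. With the length trend subtracted, the median of the 9 genes was 0.11. Because the 10 genes were chosen with earlier results of these data known, these shares and medians are descriptions and not tests.

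**Figure D1:**
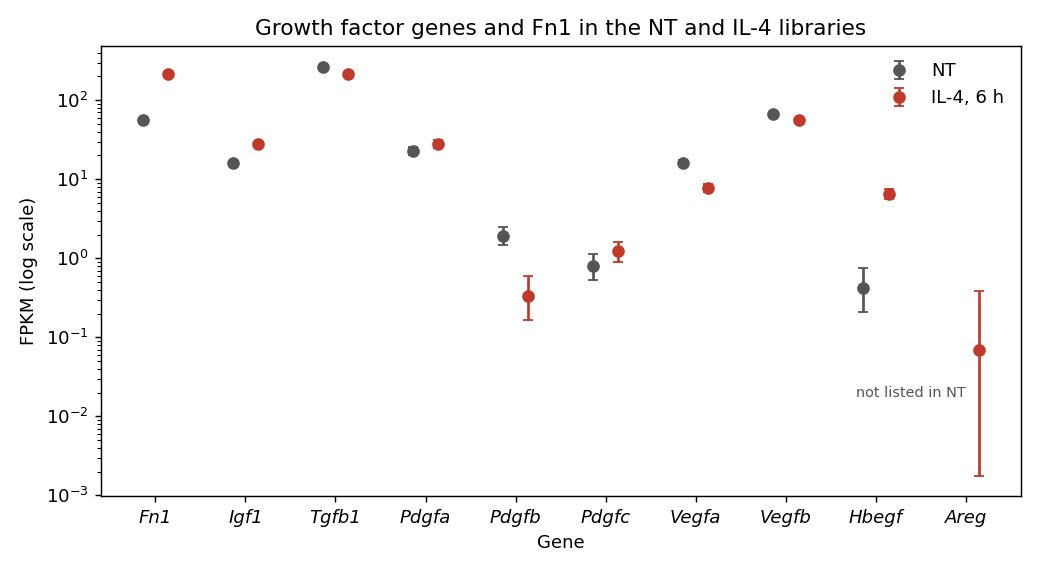
FPKM on a log scale for each gene in the NT library (grey) and the IL-4 library (red), 1 library each, with bars for exact 95% Poisson counting intervals. Fn1 reached 213 FPKM in the IL-4 library, next to Tgfb1 at 216, while Pdgfb and Vegfa had lower points in IL-4 than in NT and Areg was not listed in NT.

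In NT cells the most abundant of these transcripts per length was Tgfb1 at 261 FPKM, and it stood at percentile 98.4 of the genes listed. Vegfb followed at 66.3 FPKM, Fn1 at 56.1 and Pdgfa at 22.9, and neighbours in this order had counting intervals that did not overlap. Vegfa and Igf1 were level, at 16.29 and 16.26 FPKM, with overlapping intervals. Pdgfb (1.92 FPKM) was higher than Pdgfc (0.79 FPKM), and the interval of Pdgfc overlapped that of Hbegf (0.42 FPKM).

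The order was different in the stimulated cells. Tgfb1 (216 FPKM) and Fn1 (213 FPKM) could not be separated by their counting intervals, nor could Pdgfa (28.2 FPKM) and Igf1 (27.6 FPKM), or Vegfa (7.77 FPKM) and Hbegf (6.48 FPKM). Tgfb1 made up 59.1% of the summed FPKM of the 10 genes in NT cells and 38.8% in IL-4 cells. Fn1 made up 12.7% and 38.3%. The 10 genes together held 1316 CPM (expected counts scaled to a common total) in NT and 2519 in IL-4, but without Fn1 the sums were 862 and 819 CPM.

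Fn1 (chromosome 1, 71585473 to 71653280, GRCm38, gene 14268) had 5006 expected counts in NT cells and 19129 in IL-4 cells, which is 454 and 1700 CPM. Stimulated cells had 3.75-fold more, and the log2 ratio of 1.91 had a 95% counting interval of 1.86 to 1.95. Its rank by FPKM moved from 1214 to 346 among all genes tested. Genes of the same length had a median log2 ratio of -0.44, and relative to them the Fn1 ratio was 2.34. Fn1 was no longer called when an edgeR exact test assumed a biological coefficient of variation of 0.4 between animals, where 65 of all genes were called higher.

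Fibronectin is made in several splice forms, which differ in the extra domains A and B and in the variable region. The files list 7 RefSeq transcripts of Fn1, and their mean length, weighted by estimated share, was 7980 bases in NT and 7863 bases in IL-4 cells, a fall by 117 bases. In the GENCODE models paired with these 7 transcripts, the 270-base exon of extra domain A (chr1:71603660-71603929, minus strand) was present in 4 and the 273-base exon of extra domain B (chr1:71613763-71614035) in 1. The exon of the variable region, which ends at 71597281 in all of them, differed in length between the models. The tables give 1 value for the gene, so which of these forms changed was not measured.

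Fn1 is also abundant in fibroblasts and mesothelial cells, whose markers were therefore examined. All 9 such markers were listed in NT and 8 of 9 in IL-4, with summed levels of 48.6 and 41.3 FPKM, and Lum was not listed in IL-4. Col1a1 had 723 and 573 expected counts, Col1a2 610 and 577, and Dcn 300 and 289. None of the 9 was called higher and 1, Msln, was called lower (12 and 2 counts). Their part in the Fn1 level was not tested. In bulk RNA, fewer cells of a type and less RNA per cell cannot be told apart.

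Igf1 (chromosome 10, 87858265 to 87937047, gene 16000) rose from 1292 to 2235 expected counts (16.3 to 27.6 FPKM). The difference was 1.70-fold. Its log2 ratio, 0.76, had an interval of 0.66 to 0.86 that spans the limit of 0.75. Igf1 lost its call without the 100 most abundant genes in the total (0.74), with FPKM plus 1 (0.73), at a limit of 1 and when the assumed coefficient of variation was 0.2 or 0.4. Relative to genes of the same length, whose median was -0.41, its ratio was 1.17. The weighted length of Igf1 was 7109.20 bases in NT and 7108.34 in IL-4. Of the GENCODE models paired with its 5 listed transcripts, 1 is 7052 bases long and the others run from 651 to 1673, and the weighted length lay near that of the longest model in both libraries. Igf1os, a noncoding gene that overlaps Igf1, was listed in neither.

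**Figure D2:**
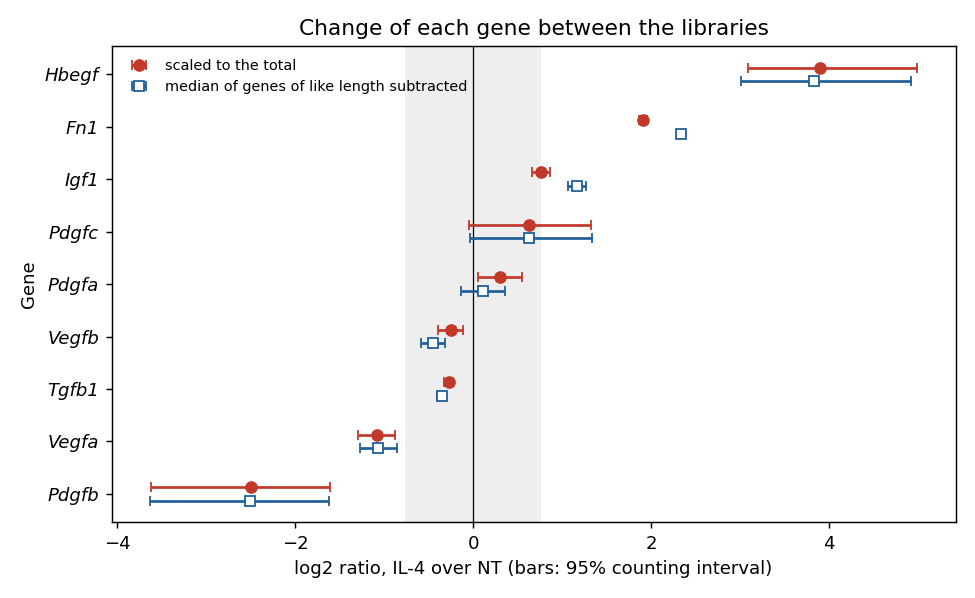
Log2 ratio of IL-4 over NT for the 9 genes listed in both libraries, scaled to the total (red circles) and with the median of genes of like length subtracted (open blue squares). Bars are 95% counting intervals and the grey band holds ratios within 0.75 of 0. The subtraction moved Fn1 from 1.91 to 2.34 and Igf1 from 0.76 to 1.17, and Hbegf, Pdgfb and Vegfa stayed outside the band in both.

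Hbegf (chromosome 18, 36504927 to 36515805, gene 15200) encodes heparin-binding EGF-like growth factor, which is made as a membrane protein and shed by metalloproteinases. Its expected count rose from 11 in NT cells to 175 in IL-4 cells (0.42 and 6.48 FPKM). The log2 ratio of 3.90 (interval 3.09 to 4.99) lay at percentile 99.5 of all genes tested. Hbegf was the only one of the 10 genes that stayed called in every alternative run, although the value shrank to 2.40 with FPKM plus 1, a constant larger than its NT level. Areg, the other EGF receptor ligand of the group (chromosome 5, 91139599 to 91148432, gene 11839), was not listed in NT and had 1 expected count in IL-4. Both values lie under the floor of 3 counts, so no fold is given and a change in Areg was not detectable at this depth.

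Among the PDGF genes, Pdgfa and Pdgfb encode chains that pair into dimers, while PDGF-C forms a dimer of its own that needs proteolysis to become active. Pdgfb (chromosome 15, 79995865 to 80024614, gene 18591) fell from 63 expected counts in NT cells to 11 in IL-4 cells (1.92 and 0.33 FPKM). The log2 ratio of -2.49 (interval -3.62 to -1.61) lay at percentile 1.46 of all genes tested. With FPKM plus 1 the ratio was -1.13, and with an assumed coefficient of variation of 0.4 the call was lost.

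The remaining PDGF genes did not pass. Pdgfa (chromosome 5, 138976014 to 139000792, gene 18590) had 253 and 318 expected counts, and its log2 ratio was 0.30 (interval 0.06 to 0.55). Relative to genes of the same length this was 0.11, with an interval from -0.13 to 0.36 that includes 0. Pdgfc (chromosome 3, 81036416 to 81214040, gene 54635) had 31 and 49 counts, and the interval of its log2 ratio of 0.62, from -0.05 to 1.33, includes both 0 and the limit for a call. Pdgfa was thus the main PDGF transcript in both libraries, with 89.4% of the summed FPKM of the 3 genes in NT and 94.8% in IL-4. The ratio of Pdgfa to Pdgfb in FPKM was 11.9 in NT and 85.6 in IL-4.

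Platelets carry PDGF, and of 6 platelet and megakaryocyte markers 4 were listed in NT and 3 in IL-4, with summed levels of 21.3 and 20.5 FPKM. Almost all of that came from Pf4 (133 and 135 counts), which macrophages also express, while Gp9 and Ppbp were listed in neither library. Itga2b, Gp1ba and Treml1 had at most 6 counts each, and Gp1ba, at 6 and 0 counts, was called lower. Their part in the Pdgfb difference was not tested.

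VEGF-A and VEGF-B, which share the receptor encoded by Flt1, differed in abundance and in change. Vegfa (chromosome 17, 46016993 to 46032377, gene 22339) fell from 602.41 expected counts in NT cells to 289.31 in IL-4 cells (16.3 and 7.77 FPKM). This was 2.12-fold lower, and the log2 ratio of -1.08 had an interval of -1.29 to -0.88. Subtraction of the length trend left it at -1.06, and the call was lost with an assumed coefficient of variation of 0.4. Its expected counts were not whole, and its weighted length was 3328 bases in NT and 3286 in IL-4.

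Vegfb (chromosome 19, 6982472 to 6987651, gene 22340) had 934 and 800 expected counts, and its log2 ratio was -0.25 (interval -0.39 to -0.11). This interval excludes 0 but lies within the limit for a call. Relative to genes of the same length the ratio was -0.45 (interval -0.59 to -0.31), which was also within the limit. Vegfb was the more abundant of the pair per length, and the ratio of Vegfb to Vegfa in FPKM was 4.07 in NT and 7.18 in IL-4.

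Tgfb1 (chromosome 7, 25687002 to 25705077, gene 21803) encodes TGF-β1, which is secreted in a latent complex and released from it outside the cell. It had 6331 expected counts in NT and 5332 in IL-4, or 574 and 474 CPM. The log2 ratio was -0.28, with an interval from -0.33 to -0.22, which makes it 1.21-fold lower without reaching the limit for a call. Relative to genes of the same length the value was -0.35.

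**Figure D3:**
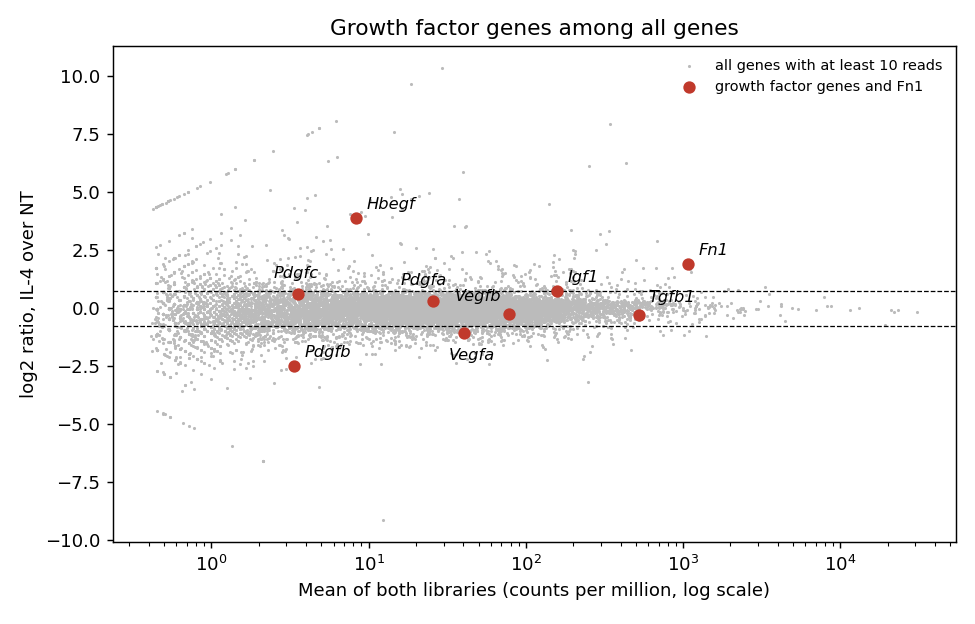
Log2 ratio of IL-4 over NT against the mean CPM of both libraries (log scale) for all genes with at least 10 reads (grey) and the 9 genes listed in both libraries (red), with dashed lines at 0.75 and -0.75. Fn1 and Tgfb1 lie among the abundant genes, at log2 ratios of 1.91 and -0.28, whereas Hbegf (3.90) and Pdgfb (-2.49) rest on far fewer reads.

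Promoter sequences from the RefSeq table for GRCm38.p6, from 250 bases before to 50 after a start, were found for 7 of the 10 genes, 9 promoters in all. Pdgfb, Hbegf and Fn1 were not matched. Stat6 binds palindromes with 3 or 4 bases between the arms, and neither TTCNNNGAA nor its form with 1 more base between the arms, which read alike on both strands, occurred in any of the 9. Over all 32851 promoters of this length, 8.30% held the former and 6.95% the latter. The letters GGGCGG on either strand, the GC box, occurred in 7 of the 9 promoters and in 35.7% of all promoters. Pdgfa and Vegfa each gave more than 1 promoter with it, and the promoters of Pdgfc and Igf1 lacked it. Promoters with it held 59.3% to 77% G or C, and the comparison with all promoters was not matched for this. TGACGTCA, the cAMP response element, occurred in 1 of the 9, that of Areg, and in 1.79% of all. CCAAT occurred in 3 of the 9 and in 37.4% of all, and TATAAA in 1 of the 9 and in 13.6% of all, on either strand. A match is a description of the letters and not evidence of binding, and these 4 motifs were picked after the promoters had been inspected. Each 30-base window below covers only part of 1 promoter, upstream of the start and 5′ to 3′ on the strand of the gene. Capitals mark the GC boxes within the window for the VEGF pair and the abundant Tgfb1. The whole promoters held 6 copies for Tgfb1, 4 for Vegfb and 2 for the Vegfa promoter shown. For the nearly silent Areg only the cAMP response element is in capitals, and a GC box beside it is left in lower case.
Vegfa, chr17:46032422-46032451, minus strand: cgGGGCGGgtctGGGCGGggcttgggggtg
Vegfb, chr19:6987738-6987767, minus strand: cCCGCCCcgcctCCGCCCgcggcccggtgg
Tgfb1, chr7:25686972-25687001, plus strand: cttcaaaacccccgCCGCCCcagccggtcc
Areg, chr5:91139527-91139556, plus strand: gggctggtccgTGACGTCAcgggcggtggc

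The genes around these factors were followed in 4 lists of 88 genes, of which 83 were listed in 1 or both libraries. In all, 12 were called higher, against 4.07% of all genes tested, 10 were called lower, against 6.28%, and 61 were not called. The median log2 ratio was -0.13. The rule for named genes picked 18 called genes, and allowed the receptors of the 10 genes whatever their value, up to 20 in all. More pathway genes are named below, and the others were chosen after their values were seen. With the length trend subtracted, 5 calls of the 4 lists were lost, those of Igf1r, Igfbp6, Nrp1, Skil and Tgfbr1. Another 1 was gained, that of Itga4, so that 12 genes were higher and 6 lower. Over all genes tested, the same subtraction gave 634 higher and 751 lower, against 635 and 979 without it. With a coefficient of variation of 0.4 assumed, 2 pathway genes were higher and 0 lower, beside 65 and 8 over all genes.

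Receptors held the largest group of lower genes, with 4 of 26 listed genes called higher (4.07% of all genes) and 6 lower (6.28% of all genes), and a median log2 ratio of -0.50, or -0.28 after subtraction of the length trend. Flt1, the receptor of VEGF-A and VEGF-B, rose from 8 expected counts to 221, and its log2 ratio was 4.68 (interval 3.76 to 5.99). Kdr, the main signalling receptor of VEGF-A, fell from 171 to 66 counts (log2 ratio -1.39), and the VEGF coreceptor Nrp2 fell from 2492 to 1003 (log2 ratio -1.34). Both stayed called relative to genes of the same length, at -1.15 and -1.04. Kdr also marks endothelial cells. Of 5 endothelial markers 3 were listed, with summed levels of 3.08 FPKM in NT and 1.61 FPKM in IL-4 (Kdr itself gave 2.80 and 1.06). Pecam1 had 6 and 15 counts and Cdh5 had 5 and 5, and neither was called. Tek and Emcn were listed in neither library. The part of endothelial cells in the Kdr difference was not tested.

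Nrp1 (log2 ratio -0.86), Tgfbr1 (-0.97), a receptor of TGF-β, and Igf1r (-0.86), the receptor of IGF-1, were called lower on the total but were at -0.56, -0.64 and -0.26 relative to genes of the same length. Of the other receptors, Tgfbr2 (-0.61), Pdgfra (-0.64) and Egfr (-0.72) were not called. Relative to genes of the same length they were at -0.43, -0.30 and -0.39. Pdgfra was also among the fibroblast and mesothelial markers, and the part of such cells in its level was not tested. Pdgfrb had 14 and 1 counts and was called lower (-3.30), with a wide interval of -9.24 to -1.12.

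Itgb3, which pairs with the αv integrin chain, rose from 290.68 to 717.44 counts (log2 ratio 1.27) and the matrix receptor Cd44 rose from 2753 to 5698 (1.02). The chains of the classical fibronectin receptor, Itga5 (1809 and 1711 counts) and Itgb1 (7411 and 9570 counts), had log2 ratios of -0.11 and 0.34 and were not called. Neither were Itga4 (432 and 632 counts, 0.52), Itgav (0.04) and Itgb5 (-0.39), although Itga4 was at 1.03 relative to genes of the same length and then passed the limit. Itgb8, an integrin chain that binds latent TGF-β, had 3 and 19 counts and was called higher (2.45, interval 0.87 to 5.03).

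**Figure D4:**
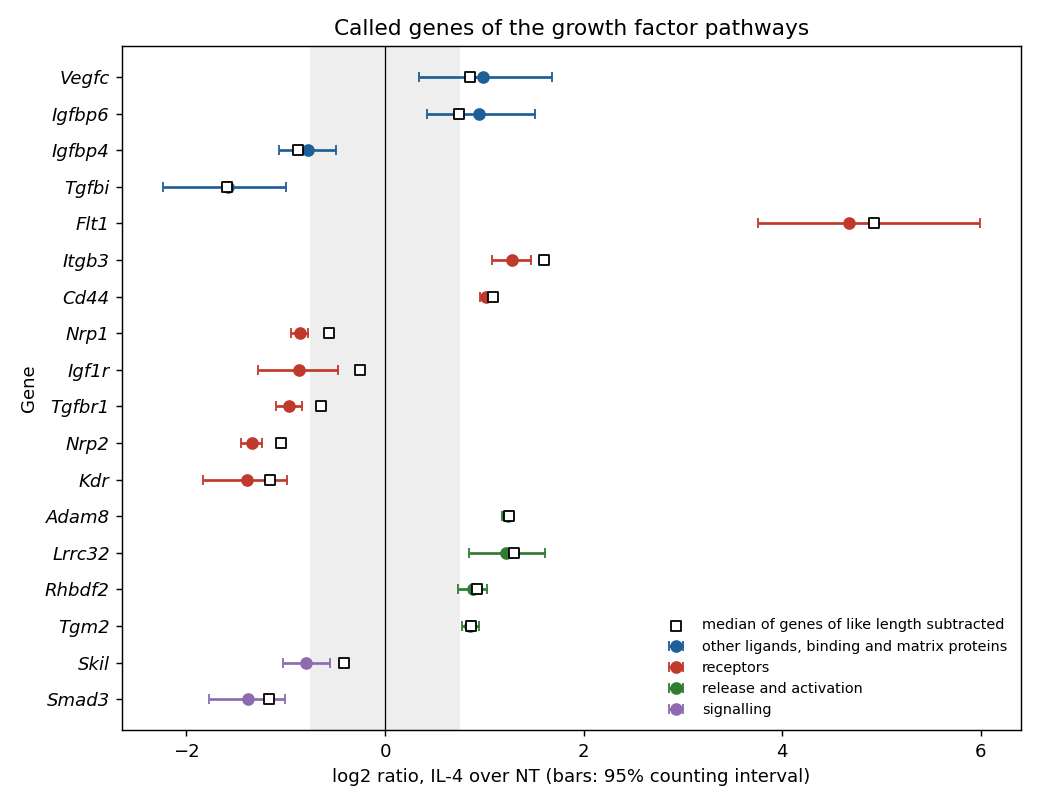
Log2 ratio of IL-4 over NT for the 18 called pathway genes that reached 50 expected counts in either library, coloured by list, with 95% counting intervals. Open squares show the ratio less the median of genes of like length, which puts Igf1r, Nrp1, Tgfbr1, Skil and Igfbp6 inside the grey band of ratios within 0.75 of 0, while Flt1 lies at 4.68 and above.

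Of 20 listed genes of release and activation, 4 were called higher (4.07% of all genes) and none lower (6.28% of all genes). The median log2 ratio was 0.06. Adam8, a membrane metalloproteinase, rose from 3694 to 8881 counts (log2 ratio 1.24), and Rhbdf2, which carries the sheddase ADAM17 to the cell surface, from 571 to 1073 (0.88). Lrrc32, which holds latent TGF-β on the cell surface, rose from 83 to 198 counts (1.22). Nrros, of the same list, was more abundant and was not called (1760 and 2052 counts, 0.19). Tgm2, a transglutaminase that crosslinks matrix, rose from 1662 to 3071 (0.86). Adam17 itself was not called (3261 and 2729 counts, log2 ratio -0.28), and neither was Furin (1863 and 2535 counts, 0.42), which cleaves the precursors of several of these factors.

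The list of other ligands, binding proteins and matrix proteins had 24 listed genes, with a median of -0.03. Of these, 4 were called higher (4.07% of all genes) and 2 lower (6.28% of all genes). Vegfc, a ligand of lymphatic vessel growth, rose from 30 to 61 counts (log2 ratio 0.98). Among the IGF binding proteins, Igfbp6 rose from 45 to 89 counts (0.95), although it fell just short of the limit once the length trend was subtracted, and Igfbp5 rose from 2 to 35 (3.80, interval from 2.14 to 7.20). Igfbp4 fell from 275 to 163 counts (-0.78). Nrg1, a ligand of the ERBB receptors, had 1 and 14 counts and was called higher (3.25, interval from 1.06 to 9.18). Tgfbi, a matrix protein induced by TGF-β, fell from 92 to 31 counts (-1.58). Spp1, which encodes osteopontin, was the most abundant gene of the lists at 1059 and 1176 FPKM and was not called (0.15).

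In the signalling list none of the 13 genes was called higher (4.07% of all genes) and 2 were called lower (6.28% of all genes). The median was -0.06. Smad3, which carries the TGF-β signal to the nucleus, fell from 207 to 81 counts (log2 ratio -1.38), and was at -1.17 relative to genes of the same length. Skil, a repressor of SMAD activity, fell from 406 to 239 counts (-0.79), or -0.42 by the same comparison. Smad2 (560 and 709 counts, log2 ratio 0.31) and Smad4 (559 and 540 counts, -0.08) were not called, and Smad7 had 17 counts in each library.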

How the data were processed

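RNA of 1 NT and 1 IL-4 sample was sequenced on an Illumina HiSeq. The authors used Bowtie to map reads to GRCm38/mm10 and RSEM to quantify genes (versions not given in the sources used here), and deposited expected counts, which are not scaled for depth, and FPKM values, scaled for length and depth. A deposited length column gives bases weighted over transcripts. Genes not listed were set to 0. Symbols came from a RefSeq table for GRCm38.p6 (15587 of 15623 matched).

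Log2 ratios used counts scaled to the totals (11035641 and 11250099) plus 0.5 count. Rounded counts of 15593 genes were tested with an exact binomial test (2 times the smaller tail) with BH adjustment, leaving out 30 genes at 0 in both after rounding. Intervals are Clopper-Pearson 95% intervals for ratios and exact Poisson intervals for FPKM. The floor was 3 counts. The length trend at a gene was the median over 200 genes of closest length that had at least 200 reads. The procedure was run on simulated Poisson counts without variation between animals, with changes planted only in genes averaging at least 200 counts. That run cannot show how calls hold between animals or at low counts.

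All 10 genes are named. Of the pathway lists, the rule named called genes that reached 50 expected counts in either library. It allowed the receptors of the 10 genes whatever their value, up to 20 genes in all. More pathway genes are named here, and the others were chosen after their values were seen. Members and lists were chosen with earlier results of these data known. Alternatives were other scalings, FPKM plus 0.1 or 1, the length trend, other limits, a filter at 10 counts and, in edgeR, an exact test that assumes a coefficient of variation of 0.1, 0.2 or 0.4. Python 3.11.15, scipy 1.17.1, R 4.3.3, edgeR 4.0.16 and DESeq2 1.42.0 (size factors only) were used.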

Additional observations from a re-analysis of the deposited data

How the results depend on the processing

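No paired analysis was possible because NT and IL-4 hold 1 library each. No ratio of the 9 genes listed in both libraries changed direction under the 12 alternatives. Of these comparisons, 100 kept their side of the limits and 8 lost the call. Igf1 lost it with FPKM plus 1 (0.73), without the 100 most abundant genes (0.74), and, at an unmoved ratio of 0.76, at a limit of 1 and with coefficients of variation of 0.2 or 0.4 assumed. With 0.4, Fn1 (1.91), Pdgfb (-2.49) and Vegfa (-1.08) lost it too, which left 1 of the 10 genes higher and 0 lower. Over all genes (635 higher and 979 lower), FPKM plus 1 gave 391 and 399, a coefficient of variation of 0.2 gave 390 and 423, 0.4 gave 65 and 8, and a limit of 1 gave 408 and 476. Subtraction of the length trend gave 634 and 751. Calls among the pathway genes (12 higher and 10 lower) fell in both directions under several settings. FPKM plus 1 left 8 higher and 6 lower, as did an assumed 0.2. A limit of 1 left 8 higher and 5 lower, and 0.4 left 2 higher and 0 lower. Subtracting the length trend left 12 higher and 6 lower. The median of the pathway genes, -0.13, was -0.26 among genes with at least 10 counts, where fewer genes were tested. For the other changes, the cause was not tested. Other scalings shifted the median of all genes by at most 0.037 in size. Depth limits several genes, among them Areg, Pdgfc, Pdgfrb, Nrg1, Igfbp5 and Itgb8.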
